A study of Mus musculus with 100 samples.

Results

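The lysyl oxidase crosslinking family comprised 8 of the 17310 genes measured in mouse knee joints, chosen by name: the 5 lysyl oxidases Lox, Loxl1, Loxl2, Loxl3 and Loxl4, and the 3 elastic fibre genes Eln, Fbln2 and Fbn1. All 8 were in the table and all 8 passed the filter on low counts. The lowest count of any of them in any library was 92, for Loxl4, and the highest was 7104, for Loxl2.

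Lysyl oxidases are secreted, copper-dependent amine oxidases that convert lysine and hydroxylysine side chains of collagens and tropoelastin into reactive aldehydes. These aldehydes condense into the covalent crosslinks that give collagen fibrils and elastic fibres their strength. Elastin is laid down on microfibrils built of fibrillin-1, the product of Fbn1, and fibulin-2, the product of Fbln2, is a matrix glycoprotein that binds both proteins. In the joint such crosslinked fibres occur in the capsule, synovium, ligaments, meniscus, cartilage and bone.

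RNA was sequenced from whole knee joints of MRL/MpJ, C57BL/6 (C57BL/6J in the study's methods) and STR/ort mice aged 10 weeks at injury, strains chosen by the study because they differ in how readily they develop osteoarthritis, with MRL/MpJ labelled as not susceptible. The labels name no transgene. The methods state isoflurane anesthesia for the loading and buprenorphine as analgesia after it, and name neither for the 0-day mice. Mice sampled after injury were also older than those of 0-day by the time elapsed. In comparisons with 0-day these agents and age cannot be told apart from the injury. The right knee was injured by a compressive load of 10 to 12 N, which ruptures the anterior cruciate ligament, and the unloaded opposite knee of the injured mice served as the uninjured contralateral joint. Each strain had 4 libraries from mice before injury, called 0-day, and was then sampled on both sides at 1-day, at 1-week and at 2-weeks, with 5 libraries per side except for 4 contralateral joints of MRL/MpJ and of STR/ort at 1-week, which gave 100 libraries in 21 groups. The labels place the 70 libraries of 0-day, 1-day and 1-week in 1 sequencing batch and the 30 of 2-weeks in another, which means that for 2-weeks batch cannot be told apart from time, and levels were tested between time points only within the former batch. The labels name the animal for the 2-weeks joints only, and where nothing says that libraries came from separate mice the p values measure only the spread between libraries.

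In the mm10 build Fbln2 and Loxl3 lie on chromosome 6 and the other members on a chromosome each. In the GENCODE annotation of that build Loxl1 spans chr9:58287738-58313186, Loxl2 chr14:69609068-69695834, Loxl3 chr6:83034173-83052562, Loxl4 chr19:42593982-42612813, Eln chr5:134702593-134747323, Fbln2 chr6:91212455-91272540 and Fbn1 chr2:125300594-125507993. All 8 are protein coding. The position of Lox is not given here.

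The lysyl oxidases share a catalytic domain whose copper ion is held by histidines, and this site shows how alike the coding sequences are. The 33 coding bases of it, which in each gene lie on 2 exons, are shown for 4 of the enzymes on their coding strand with the histidine codons in capitals, and positions run from the outermost bases including the intron between them.
Loxl1, chr9:58293720-58294381, minus strand: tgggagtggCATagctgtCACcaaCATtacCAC
Loxl2, chr14:69682316-69689037, plus strand: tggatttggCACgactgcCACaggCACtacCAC
Loxl3, chr6:83049995-83050125, plus strand: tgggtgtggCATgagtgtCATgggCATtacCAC
Loxl4, chr19:42598807-42599899, minus strand: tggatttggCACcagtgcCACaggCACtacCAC
Loxl2 and Loxl4 were the most alike of these, with 31 of 33 bases identical, and Loxl1 and Loxl4 the least alike, with 21 of 33. Over whole transcripts the longest run of identical bases between any pair of lysyl oxidases was 32, between Lox and Loxl1. This compares 1 transcript of each enzyme, and other genes were not searched. Whether reads were assigned to 1 member only was not tested.

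Libraries held between 6182016 and 20986027 counts in total (median 10582592). Markers of cartilage, bone, muscle, synovium, vessels, fat, macrophages and marrow were all detected, with 0 of 47 markers at 0 counts in any library, so that each library was a mixture of tissues. In such bulk samples fewer cells of a type and less RNA per cell cannot be told apart. The summed level of 6 fast muscle markers ranged from 12531 to 97018 CPM (counts scaled by library size) between libraries, and that of 6 fibroblast and synovium markers from 1218 to 23370 CPM. Of the 5 injured MRL/MpJ libraries of 2-weeks, replicate 3 stood apart. Over 125 other genes that injury raised in every strain at 1-week and 2-weeks its mean was 3.86 log2 CPM, against 4.55 to 4.83 in the 4 other injured libraries and 3.56 to 3.62 in the uninjured ones, and calls that change without it are given with and without it. Replicate 4 of that group had the lowest correlation with its group, a median r of 0.984 against 0.991 to 0.992, and the highest fast muscle sum, 97018 CPM, and without it 1 call of a member changed, Fbn1 between injured C57BL/6 and MRL/MpJ joints, which was then called at 0.60.

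Group means, as CPM, differed most for Loxl2, by 11.2-fold between 50.1 in uninjured MRL/MpJ joints at 2-weeks and 563 in injured STR/ort joints at 1-week, which span both batches. The injured STR/ort joints of 1-week also held the highest group mean of Lox, Loxl3, Eln and Fbn1. Loxl1 was highest in injured STR/ort joints at 2-weeks, Fbln2 in injured C57BL/6 joints at 1-day and Loxl4 in C57BL/6 joints at 0-day. The range was narrowest for Loxl4, 4.05-fold. Scaled per kilobase of transcript, the levels at 0-day in C57BL/6 ran from 8.23 ± 0.68 CPM per kilobase for Loxl1 to 62.9 ± 7.64 for Loxl2 (SD, n = 4), with Lox at 33.8 ± 6.65. The distance between Loxl2 and Lox depended on the transcript used, since over the length of all coding transcripts Loxl2 stood at 35.4 CPM per kilobase, within 1 SD of Lox.

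**Figure D1:**
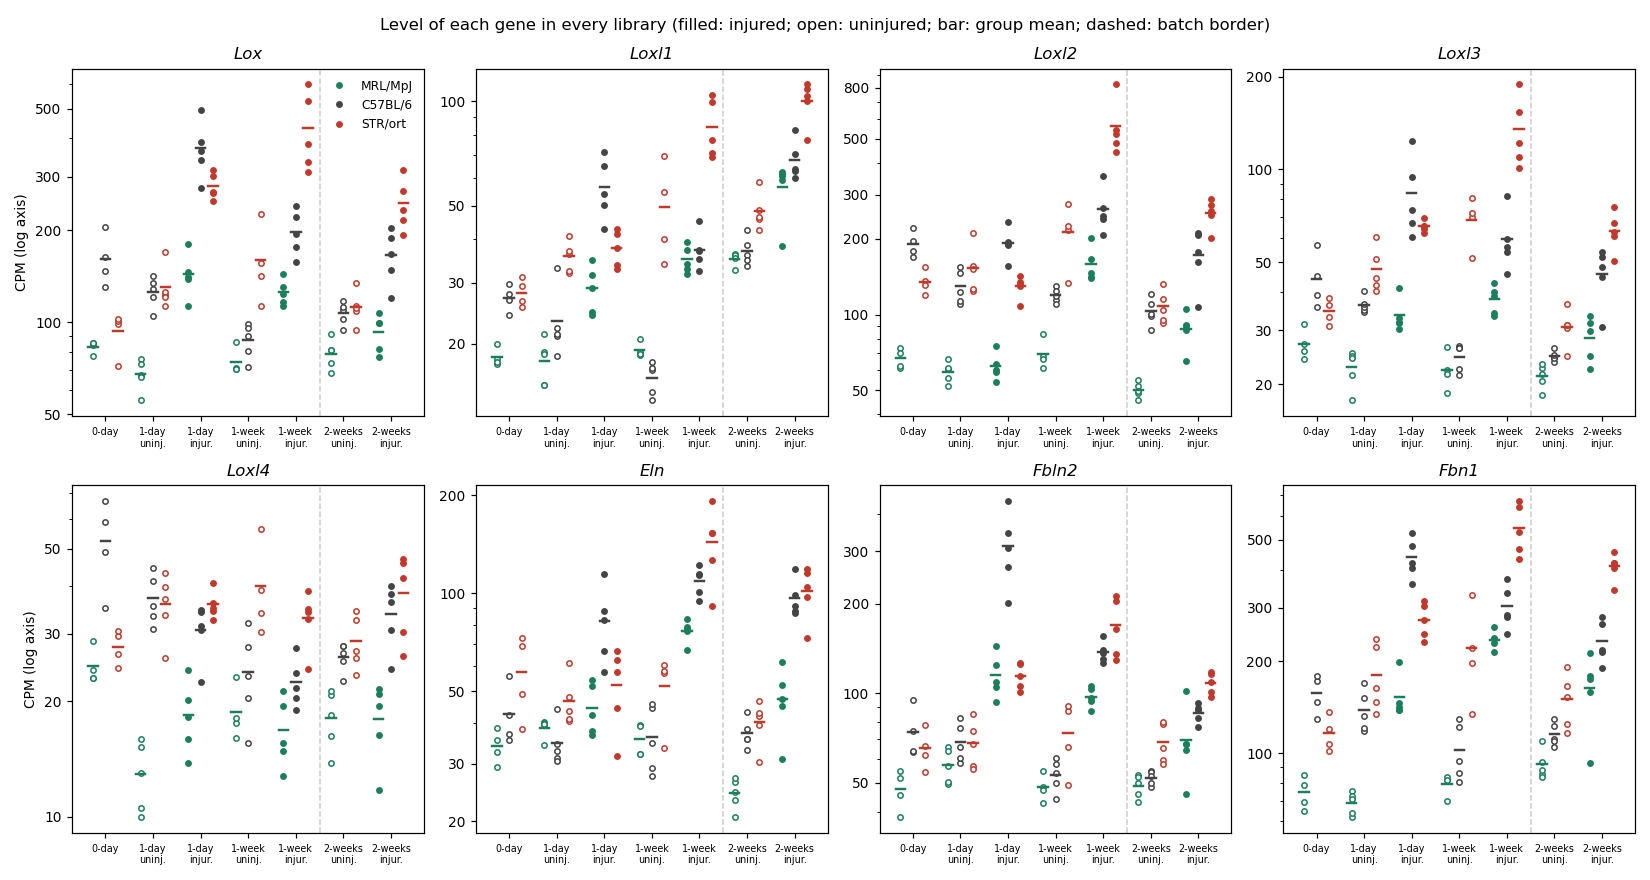
Level of each gene in CPM (log axis) in all 100 libraries, by time point and joint, with 1 point per library, filled for injured joints, and a bar at each group mean. The injured STR/ort libraries of 1-week reach the highest levels of Loxl2, up to 825 CPM, while MRL/MpJ lies lowest in most groups and Loxl4 shows little difference between injured and uninjured joints.

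At 0-day, before any injury, C57BL/6 joints expressed 7 of the 8 genes more highly than MRL/MpJ joints, all but Eln. The term called is used for an adjusted p under 0.05 together with a change of more than 1.5-fold, and in this comparison 9.64% of all genes were called higher. The largest difference was in Loxl2, an enzyme that crosslinks collagen of basement membranes among other substrates. Loxl2 stood at 178, 197, 169 and 222 CPM in C57BL/6 and at 73.3, 61.3, 62.5 and 70.3 CPM in MRL/MpJ, and the groups did not overlap. The log2 fold change was 1.56 ± 0.10 (SE; adjusted p = 1.2e-09). Loxl4, Fbn1 and Lox, the founding enzyme of the family, differed by 1.13 ± 0.15, 1.12 ± 0.11 and 1.00 ± 0.12 on the log2 scale, Loxl3, Fbln2 and Loxl1 by 0.75, 0.68 and 0.61. Eln, which encodes tropoelastin, differed by 0.37 ± 0.17 and was not called. Over the 8 genes the median log2 fold change was 0.88, and over all genes it was 0.01.

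STR/ort joints at 0-day lay between the other strains for most members. Against MRL/MpJ, 4 of 8 were called higher, beside 8.34% of all genes: Loxl2 by 1.02 ± 0.10, Eln by 0.76 ± 0.17, Fbn1 by 0.64 ± 0.11 and Loxl1 by 0.62 ± 0.09 on the log2 scale. Against C57BL/6, 2 were called lower, beside 5.99% of all genes, Loxl4 by -0.95 ± 0.15 and Lox by -0.82 ± 0.12. Loxl2, at -0.54 (adjusted p = 0.00023 by edgeR), missed only the fold threshold and was called with scaling by housekeeping genes (-0.60). Lox stood at 98.6, 101, 103 and 72.2 CPM in STR/ort and at 147, 164, 131 and 205 CPM in C57BL/6, without overlap. Markers of several tissues moved with these differences. All 6 fast muscle markers were called lower in C57BL/6 than in MRL/MpJ and all 6 higher in STR/ort than in C57BL/6, and their sum was 29241 to 47547 CPM in C57BL/6, 64008 to 77118 in MRL/MpJ and 67529 to 76835 in STR/ort. Of the 6 fibroblast and synovium markers 6 were higher in C57BL/6 and 4 in STR/ort than in MRL/MpJ, and of 5 cartilage markers 5 were higher in C57BL/6 than in MRL/MpJ and 3 lower in STR/ort than in C57BL/6. In C57BL/6 3 of 5 macrophage, 3 of 6 bone and 2 of 4 fat markers were higher than in MRL/MpJ. In STR/ort 3 of 5 smooth muscle markers were higher than in C57BL/6, and of 5 macrophage markers 2 were lower and 1 higher. The part of these other markers was not tested. With the fast muscle sum as a covariate, 6 of the 13 calls between strains at 0-day were made, and with 2 factors from housekeeping genes 3 were. Lox and Loxl4 shrank or turned their direction: between C57BL/6 and MRL/MpJ Lox stood at 0.29 with the covariate and -0.054 with the 2 factors and Loxl4 at 0.16 and -0.29, and between STR/ort and C57BL/6 Lox stood at -0.11 and -0.040 and Loxl4 at 0.028 and 0.083. Loxl3 stood at 0.25 and 0.14 between C57BL/6 and MRL/MpJ. In that comparison Fbln2 stood at 1.02 with the covariate (adjusted p = 0.050) and 0.93 with the 2 factors. Loxl1 stood there at 0.38 with the covariate and 0.62 with the 2 factors, and was called in neither. The Loxl1 call was also lost with 1 factor (0.52), with RLE size factors (0.58) and with DESeq2 (0.58). With the 2 factors Eln and Fbn1 were no longer called between STR/ort and MRL/MpJ, at 0.47 and 0.57. Nor was Fbn1 between C57BL/6 and MRL/MpJ, at 0.78. Loxl2 was called against MRL/MpJ in both strains in each of these fits. Single libraries decided 4 of the calls: Loxl1 between C57BL/6 and MRL/MpJ was lost without C57BL/6 replicate 4 or MRL/MpJ replicate 1 (0.56 and 0.58), Fbln2 without C57BL/6 replicate 1 (0.54), and Loxl1 and Fbn1 between STR/ort and MRL/MpJ without STR/ort replicate 1 (0.56 each).

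At 1-week the same 7 genes, all but Loxl4, were called higher after injury in every strain, while at 1-day and 2-weeks the number called differed between strains. At 1-day, 6 of 8 genes were called higher in injured than in contralateral joints of C57BL/6 (background 4.26% of all genes), 4 in MRL/MpJ (1.53%) and 2 in STR/ort (1.61%). At 1-week, 7 of 8 were called in C57BL/6 (4.75%), in MRL/MpJ (2.93%) and in STR/ort (5.67%). At 2-weeks, 7 of 8 were called in C57BL/6 (2.88%) and in STR/ort (4.34%) and 4 in MRL/MpJ (1.14%), where without replicate 3 of the injured joints Fbln2 was called as well. The median log2 fold change of the 8 genes at 1-week was 0.97 in MRL/MpJ, 1.27 in C57BL/6 and 1.26 in STR/ort, where the median of all genes lay between -0.03 and -0.01. Markers of fibroblasts and synovium moved with injury too: 2 of 6 were called higher at 1-day in MRL/MpJ, 3 in C57BL/6 and 1 in STR/ort, 6, 6 and 3 at 1-week and 5 in each strain at 2-weeks. Of the 6 fast muscle markers 4 were called lower in STR/ort at 1-day, and 5 in STR/ort and 1 in C57BL/6 at 1-week. In STR/ort 3 of 4 fat markers were lower at 1-day, 3 of 6 bone and 2 of 5 marrow neutrophil markers lower and 3 of 5 smooth muscle markers higher at 1-week, and 3 of 5 cartilage markers higher at 2-weeks, and in C57BL/6 2 of 5 macrophage markers were higher at 1-day. With the fast muscle sum as a covariate 54 calls of a member were made for injury, against 51 without it, and the part of the other markers was not tested.

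**Figure D2:**
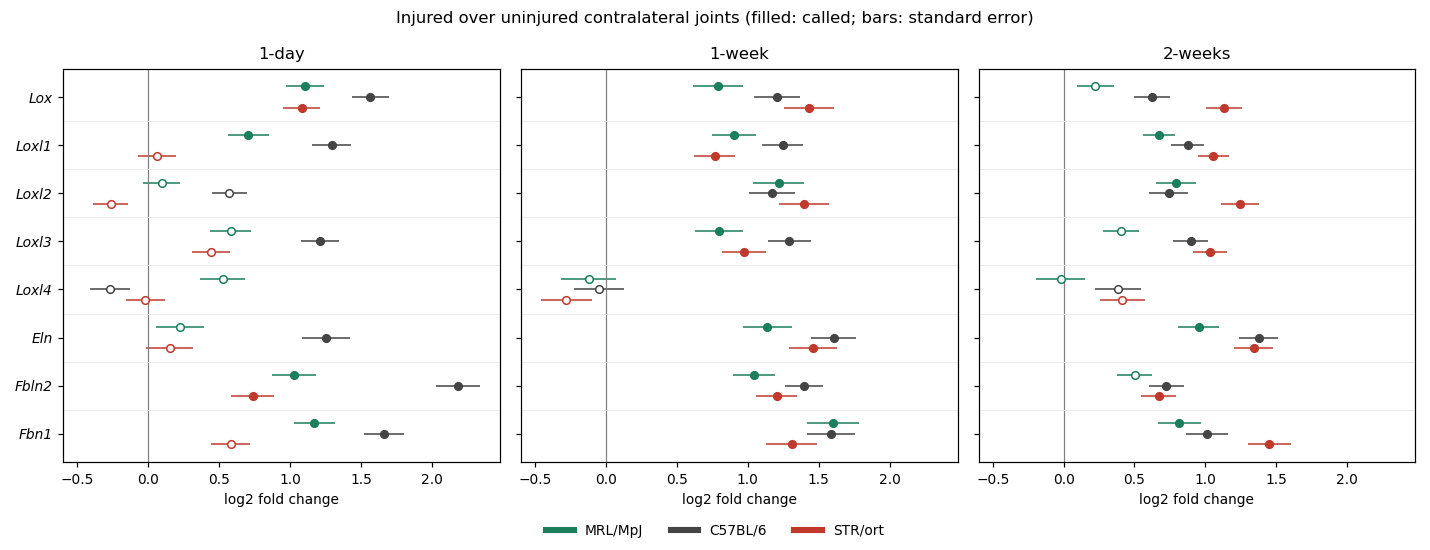
Log2 fold change of injured over uninjured contralateral joints for each gene, by time point and strain, with standard errors as bars and filled points for called genes. At 1-day the C57BL/6 points lie farthest to the right for 7 of the 8 genes, at 1-week 7 genes are called in every strain, and no point of Loxl4 is filled.

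Lox responded early. At 1-day injured C57BL/6 joints held 388, 276, 339, 497 and 364 CPM of Lox and contralateral joints 134, 141, 121, 105 and 128 CPM. The log2 fold change was 1.56 ± 0.13 in C57BL/6 (adjusted p = 4.3e-10), 1.11 ± 0.13 in MRL/MpJ and 1.08 ± 0.13 in STR/ort, and in no strain did injured and uninjured libraries overlap. In STR/ort the injured joints of 1-week held 601, 528, 384, 311 and 334 CPM and the contralateral joints 226, 142, 113 and 156 CPM, a log2 fold change of 1.43 ± 0.18. In MRL/MpJ the fold change was 0.79 ± 0.18 at 1-week, a call lost with 2 factors from housekeeping genes (0.67, adjusted p = 0.071), and at 2-weeks the injured joints, with 99.5, 99.7, 81.7, 77.1 and 107 CPM, overlapped the contralateral ones, with 81.1, 68.4, 91.3, 81.2 and 73.4 CPM. That last difference, 0.22 ± 0.13, was not called, while C57BL/6 and STR/ort were still called higher at 2-weeks, by 0.63 ± 0.13 and 1.13 ± 0.13. The C57BL/6 call at 2-weeks rested on the fold threshold and was lost without any of 3 libraries, at log2 values from 0.54 to 0.58.

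At 1-day Loxl2 was called in 0 of 3 strains by edgeR and in 0 by DESeq2, although 2 of the 3 had an unadjusted p below 0.05. The injured STR/ort joints then held 143, 133, 130, 108 and 135 CPM and overlapped the contralateral joints at 124, 211, 156, 152 and 126 CPM. In C57BL/6 the log2 fold change of 0.57 ± 0.12 at 1-day had an adjusted p of 0.0011 and missed only the fold threshold, and it was called with 1 or 2 factors from housekeeping genes (0.63 and 0.75) and with the fast muscle covariate (0.66). At 1-week the injured STR/ort joints held 825, 542, 521, 443 and 484 CPM against 276, 216, 134 and 226 CPM, and the log2 fold change was 1.40 ± 0.18 in STR/ort, 1.22 ± 0.18 in MRL/MpJ and 1.17 ± 0.16 in C57BL/6. At 2-weeks it was 1.24 ± 0.14, 0.80 ± 0.14 and 0.74 ± 0.14 in the same order.

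The other enzymes split. Loxl1, which is required for the upkeep of elastic fibres, was called at every time in C57BL/6 and MRL/MpJ, but in STR/ort its log2 fold change at 1-day was 0.06 ± 0.14, with 32.8, 33.7, 42.8, 37.6 and 41.6 CPM in injured and 40.8, 36.2, 37.1, 32.0 and 32.4 CPM in contralateral joints. It reached 0.77 ± 0.14 at 1-week and 1.06 ± 0.11 at 2-weeks in that strain. Loxl3, which is needed in mice for the palate and spine, was called at 1-day in C57BL/6 (1.21 ± 0.14) and in all strains at 1-week, by 0.80 to 1.29. At 1-day its values of 0.58 ± 0.14 in MRL/MpJ (adjusted p = 0.014) and 0.44 ± 0.13 in STR/ort (adjusted p = 0.031) missed only the fold threshold, and that of MRL/MpJ was called with 1 or 2 factors from housekeeping genes (0.62 and 0.61). At 2-weeks Loxl3 was called in C57BL/6 and STR/ort, and its value in MRL/MpJ was 0.41 ± 0.13 (adjusted p = 0.12), or 0.48 ± 0.13 without replicate 3 of the injured joints (adjusted p = 0.033), under the fold threshold in both.

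Loxl4, known in mice for its expression in cartilage, was the exception. It was called in 0 of 9 injury comparisons by edgeR and in 0 by DESeq2, with an unadjusted p below 0.05 in 3, and its log2 fold changes ran from -0.28 to 0.52. At 1-week injured STR/ort joints held 32.9, 34.2, 24.2, 34.9 and 38.9 CPM of Loxl4 and contralateral joints 56.3, 30.3, 34.0 and 39.2 CPM, so that the groups overlapped. Its highest value was in MRL/MpJ at 1-day, 0.52 ± 0.16 (adjusted p = 0.052), where it was called when replicate 3 of the injured or replicate 5 of the uninjured joints was left out. In C57BL/6 at 2-weeks its value of 0.38 ± 0.16 became 0.59 with the fast muscle covariate, which was called (adjusted p = 0.0018).

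Among the elastic fibre genes Fbln2 showed the largest response of the family. At 1-day injured C57BL/6 joints held 345, 201, 309, 442 and 265 CPM of Fbln2 against 82.6, 66.0, 58.5, 60.5 and 76.2 CPM in contralateral joints, a log2 fold change of 2.18 ± 0.16 (adjusted p = 2.2e-11). In MRL/MpJ it was 1.03 ± 0.15 and in STR/ort 0.74 ± 0.15. At 1-week the strains lay closer, at 1.40 ± 0.14 in C57BL/6, 1.20 ± 0.14 in STR/ort and 1.04 ± 0.15 in MRL/MpJ. At 2-weeks Fbln2 was called in C57BL/6 and STR/ort, by 0.72 and 0.67, and missed the fold threshold in MRL/MpJ, where its value was 0.50 ± 0.12 with all libraries and 0.62 ± 0.11, which was called, without replicate 3 of the injured joints.

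Eln was called at 1-day in C57BL/6, where injured joints held 88.5, 57.4, 83.0, 114 and 66.6 CPM and contralateral joints 44.1, 32.8, 31.2, 30.7 and 34.5 CPM, a log2 fold change of 1.25 ± 0.17. In MRL/MpJ and STR/ort its values at 1-day were 0.22 ± 0.17 and 0.15 ± 0.17. At 1-week Eln was called in every strain, by 1.14 in MRL/MpJ, 1.61 in C57BL/6 and 1.46 in STR/ort, and at 2-weeks by 0.95, 1.38 and 1.34. Fbn1 was called in 8 of 9 comparisons, by 0.82 to 1.66. The remaining value was that of STR/ort at 1-day, 0.58 ± 0.14 (adjusted p = 0.0049), just under the fold threshold, and it was called with 1 or 2 factors from housekeeping genes (0.70 and 0.79), with the fast muscle covariate (0.77) and with the compared groups only (0.60).

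The question whether the strains differed in their response to injury was tested as an interaction, the difference between strains in the log2 fold change of injury. The 1-day response was smaller in STR/ort than in C57BL/6 for 6 of 8 genes, beside 2.48% of all genes called in that direction. Fbln2 differed by -1.45 ± 0.21 (adjusted p = 7.4e-05), Loxl1 by -1.23 ± 0.20, Eln by -1.10 ± 0.24, Fbn1 by -1.08 ± 0.19, Loxl2 by -0.84 ± 0.17 and Loxl3 by -0.77 ± 0.19. Lox, at -0.48 ± 0.18 (adjusted p = 0.14), and Loxl4, at 0.25 ± 0.20, were not called. The call of Loxl3 was lost without replicate 4 of the injured C57BL/6 joints, which held the highest level of Loxl3, Eln, Fbln2, Fbn1, Lox, Loxl1 and Loxl2 in its group.

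C57BL/6 also exceeded MRL/MpJ at 1-day in the response of 2 genes, beside 0.283% of all genes: Fbln2 by 1.16 ± 0.22 (adjusted p = 0.0085) and Eln by 1.03 ± 0.24 (adjusted p = 0.047). The latter call was fragile, being lost when any one of 13 libraries was left out, at adjusted p from 0.058 to 0.12, or when counts were scaled by housekeeping genes (0.97, adjusted p = 0.093). Loxl4 had the opposite sign, -0.79 ± 0.21 (adjusted p = 0.094), and was not called by edgeR but was by DESeq2, at -0.79 with an adjusted p of 0.027. Between STR/ort and MRL/MpJ at 1-day 0 of 8 members were called by edgeR and 0 by DESeq2, with 3 at an unadjusted p below 0.05, beside 0.162% of all genes called in either direction. Their differences ran from -0.64 ± 0.20 for Loxl1 to -0.02 ± 0.18 for Lox.

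**Figure D3:**
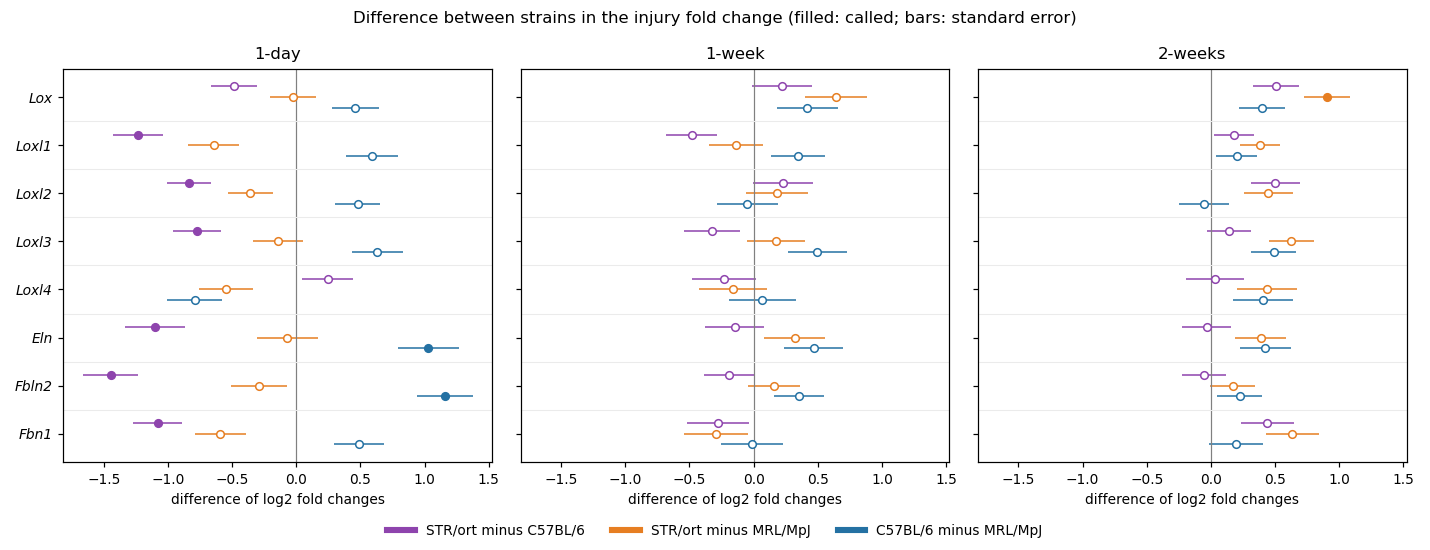
Difference between strains in the log2 fold change of injury for each gene and time point, with standard errors as bars and filled points for called differences. At 1-day 6 differences between STR/ort and C57BL/6 are called and lie at or below -0.77, whereas at 1-week no point is filled and at 2-weeks only that of Lox between STR/ort and MRL/MpJ is.

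At 1-week no difference in response was called. Of 24 tests edgeR and DESeq2 called 0, and 3 had an unadjusted p below 0.05, beside 0.491% of all genes called between STR/ort and C57BL/6, 0.884% between STR/ort and MRL/MpJ and 0% between C57BL/6 and MRL/MpJ. The largest was that of Lox between STR/ort and MRL/MpJ, 0.64 ± 0.24 (adjusted p = 0.23). With the replicate number as a block Lox was called by edgeR, at 0.71 ± 0.15 (adjusted p = 0.012). Whether the numbers pair the joints at 1-week is not known from the labels. At 2-weeks Lox responded more in STR/ort than in MRL/MpJ, by 0.91 ± 0.18 (adjusted p = 0.016; background 0.433% of all genes). Without replicate 3 of the injured MRL/MpJ joints this difference was 0.87 ± 0.18 (adjusted p = 0.041), and without replicate 1 of the uninjured ones its adjusted p was 0.051. Loxl3 differed between the same strains by 0.63 ± 0.17 (adjusted p = 0.094), and was called with 1 or 2 factors from housekeeping genes (adjusted p = 0.031 and 0.020) and with the fast muscle covariate (0.67, adjusted p = 0.014). It was not called with the animal as a block (0.64, adjusted p = 0.073), nor without replicate 3 of the injured MRL/MpJ joints (0.56, adjusted p = 0.21). Between STR/ort and C57BL/6 and between C57BL/6 and MRL/MpJ 0 of 8 were called at 2-weeks by either tool, with 3 of 8 at an unadjusted p below 0.05 in each, beside 0.0462% and 0% of all genes.

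Within the batch that holds both time points, injured joints of 1-week were compared with injured joints of 1-day. In STR/ort 6 of 8 genes were higher at 1-week, beside 8.93% of all genes, led by Loxl2 at 2.12 ± 0.18 (adjusted p = 3.5e-09) and Eln at 1.45 ± 0.21. Loxl1, Loxl3 and Fbn1 followed at 1.16, 1.05 and 1.01, and Lox at 0.63 ± 0.17, a call lost without replicate 1 or replicate 2 of the 1-week joints. In MRL/MpJ 3 were higher, beside 2.51% of all genes: Loxl2 by 1.37 ± 0.10, Eln by 0.80 ± 0.10 and Fbn1 by 0.64 ± 0.09. In C57BL/6 3 were lower, beside 2.69% of all genes: Fbln2 by -1.18 ± 0.15, Lox by -0.91 ± 0.14 and Loxl1 by -0.60 ± 0.13, the last without replicate 1 or 4 at 1-day or replicate 2 or 3 at 1-week being no longer called. In C57BL/6 Loxl2 had the opposite sign, 0.45 ± 0.12 (adjusted p = 0.012), and missed the fold threshold. It was called with scaling by housekeeping genes (0.60). Fbn1 in C57BL/6, at -0.54, was called lower with 1 or 2 factors from housekeeping genes (-0.72 and -0.71). Fbln2 in STR/ort, at 0.56, was called with scaling by housekeeping genes (0.64) and with the fast muscle covariate (0.61). The C57BL/6 call of Loxl1 was also lost with that scaling (-0.45) and with the covariate (-0.57). The strains' changes over time were not tested against each other. Summed markers moved as well, and their part was not tested: in C57BL/6 those of macrophages stood at 644 to 779 CPM at 1-day and 416 to 481 CPM at 1-week and those of fat at 109 to 154 and 51.2 to 68.5 CPM, while in STR/ort those of marrow neutrophils stood at 7085 to 8365 and 4574 to 6569 CPM and the endothelial ones at 272 to 304 and 347 to 436 CPM.

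The contralateral joints did not stay at the level of 0-day in every strain. In C57BL/6 at 1-week 6 of 8 genes were lower than at 0-day, beside 4.49% of all genes: Loxl4 by -1.16 ± 0.18, Lox by -0.90 ± 0.15, Loxl3 by -0.84 ± 0.18, Loxl1 by -0.77 ± 0.15, Loxl2 by -0.69 ± 0.13 and Fbn1 by -0.62 ± 0.15. The contralateral joints held 80.4, 90.1, 98.8, 71.3 and 95.9 CPM of Lox, all below the lowest 0-day library at 131 CPM. In STR/ort at 1-week 5 were higher than at 0-day, beside 4.73% of all genes: Loxl3 by 0.96 ± 0.16, Fbn1 by 0.90 ± 0.21, Loxl1 by 0.79 ± 0.17, Lox by 0.75 ± 0.20 and Loxl2 by 0.63 ± 0.19. Loxl3 stood there at 80.9, 69.9, 51.7 and 72.2 CPM against 33.1, 31.0, 36.3 and 38.3 CPM at 0-day, without overlap. The STR/ort calls of Lox and Loxl2 were lost without replicate 1 of the 1-week joints, at 0.53 and 0.48, that of Loxl2 also without replicate 2 of 0-day, and the C57BL/6 call of Fbn1 without any of 4 libraries.

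The remaining contralateral comparisons held few calls. In STR/ort at 1-day Fbn1 alone was called, at 0.62 ± 0.20 (adjusted p = 0.029; background 1.66%), and leaving out any of 5 libraries ended the call. In MRL/MpJ at 1-day Loxl4 alone was called, at -0.92 ± 0.16 (adjusted p = 0.0052; background 0.0867%), with 13.0, 9.97, 10.5, 15.2 and 16.0 CPM against 23.1, 23.0, 24.1 and 28.8 CPM at 0-day. In MRL/MpJ at 1-week 0 of 8 were called by edgeR and by DESeq2, with 2 at an unadjusted p below 0.05, beside 0% of all genes, and in C57BL/6 at 1-day 0 of 8 by either tool, with 3, beside 0.0462%. Eln and Fbln2 were called in no contralateral comparison, with log2 values from -0.49 to 0.26.

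Marker levels moved with these differences, and their part in them was not tested beyond the covariate. In STR/ort the sum of fast muscle markers was 67529 to 76835 CPM at 0-day and 25371 to 49937 CPM in the contralateral joints of 1-week, where the fibroblast and synovium markers reached 8984 to 23370 CPM against 4583 to 8512 CPM. In C57BL/6 the former were 29241 to 47547 CPM at 0-day and 36532 to 62237 CPM at 1-week, and the latter 3604 to 5569 CPM and 2039 to 2653 CPM. The sum of 5 cartilage markers was 2127 to 6126 CPM at 0-day and 1033 to 2920 CPM in the contralateral joints of 1-week in C57BL/6, and 2827 to 4722 CPM and 4485 to 5845 CPM in STR/ort. In MRL/MpJ it was 1793 to 3199 CPM at 0-day and 985 to 2209 CPM in the contralateral joints of 1-day, where Loxl4 was called lower. With the fast muscle sum as a covariate the 6 calls of C57BL/6 at 1-week were kept, and in STR/ort those of Lox and Loxl2 at 1-week (0.51 and 0.66) and of Fbn1 at 1-day (0.78) were lost. With 1 or 2 factors from housekeeping genes those of Lox at 1-week (0.80 and 0.82) and of Fbn1 at 1-day (1.00 and 1.01) in STR/ort were lost.

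**Figure D4:**
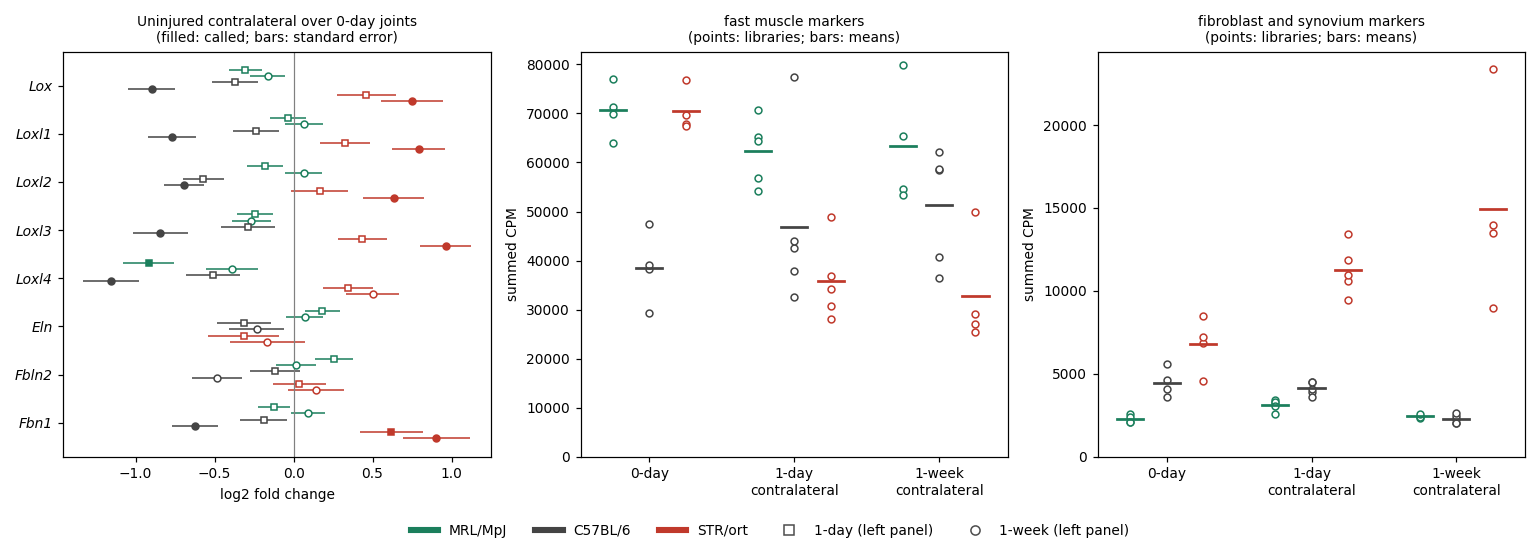
Left, log2 fold change of uninjured contralateral over 0-day joints for each gene, with standard errors as bars and filled points for called genes. Middle and right, summed CPM of 6 fast muscle and 6 fibroblast and synovium markers in the same libraries, with bars at group means. At 1-week all 8 genes lie to the left in C57BL/6, 6 of them called, and 7 to the right in STR/ort, 5 of them called, while the fast muscle sum of STR/ort is 67529 to 76835 CPM at 0-day and 25371 to 49937 CPM at 1-week.

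Of 112 tests of a member in STR/ort or C57BL/6 against MRL/MpJ, 0-day included, 73 were called higher and 0 lower by edgeR, beside 4.53% to 15% of all genes called higher in these comparisons, the lowest value being -0.26 for Loxl1 in contralateral C57BL/6 joints at 1-week (adjusted p = 0.31). These comparisons share the MRL/MpJ libraries. Loxl2 was called in all 14, with log2 fold changes from 0.72 to 1.80, and Lox, Loxl3, Loxl4 and Fbn1 in 10 of 14 each. With 2 factors from housekeeping genes 1 of the Loxl2 calls, that of contralateral C57BL/6 joints at 1-week, was not made, at 0.78 (adjusted p = 0.058 by edgeR) against 0.77 ± 0.18 without them. Eln and Loxl1 were called in 7 and Fbln2 in 5. The summed fibroblast and synovium markers of MRL/MpJ stood at 2322 to 2574 CPM in its contralateral joints of 1-week, lower than in STR/ort. In those of C57BL/6 they stood at 2039 to 2653 CPM, which overlapped MRL/MpJ. At 0-day C57BL/6 lay above MRL/MpJ, at 3604 to 5569 against 2078 to 2600 CPM. The part of these markers was not tested.

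In uninjured contralateral joints STR/ort exceeded MRL/MpJ in 6 of 8 genes at 1-day (background 13.1%), 7 at 1-week (13.7%) and 4 at 2-weeks (7.97%). The largest differences were those of Loxl4 at 1-day, 1.51 ± 0.15, and of Loxl3 and Loxl2 at 1-week, 1.64 ± 0.18 and 1.62 ± 0.19. The other called values were 1.44 for Fbn1, 1.42 for Loxl2, 1.11 for Loxl3, 1.04 for Loxl1 and 0.99 for Lox at 1-day, and 1.49 for Fbn1, 1.38 for Loxl1, 1.12 for Lox, 1.11 for Loxl4 and 0.62 for Fbln2 at 1-week. At 2-weeks they were 1.10 for Loxl2, 0.72 for Eln, 0.69 for Fbn1 and 0.66 for Loxl4. That call of Loxl4 was lost with 1 factor from housekeeping genes (0.56). C57BL/6 exceeded MRL/MpJ in 5 genes at 1-day (9%), 1 at 1-week (4.53%), which was Loxl2, and 2 at 2-weeks (6.01%), Loxl2 and Eln, at 1.04 and 0.61. The 5 at 1-day were Loxl4 at 1.54 ± 0.15, Loxl2 at 1.16, Fbn1 at 1.05, Lox at 0.93 and Loxl3 at 0.71, and the lowest value there was -0.13 for Eln. Between STR/ort and C57BL/6 only Loxl1 was called at 1-day, at 0.64 ± 0.14 (5.73%), and 6 genes were higher in STR/ort at 1-week (13.1%), led by Loxl1 at 1.63 ± 0.15 and Loxl3 at 1.49 ± 0.16, with Fbn1 at 1.12, Lox at 0.88, Loxl2 at 0.85 and Loxl4 at 0.77. At 2-weeks 0 of 8 were called between these strains by edgeR and by DESeq2, with 4 at an unadjusted p below 0.05, beside 9.78% of all genes called in either direction. Leaving out 1 library ended 5 of these calls, all close to the fold threshold. They were Loxl1 between STR/ort and C57BL/6 at 1-day (C57BL/6 replicate 4 or STR/ort replicate 1), Fbln2 between STR/ort and MRL/MpJ at 1-week (MRL/MpJ replicate 2 or STR/ort replicate 1 or 2), Loxl4 between STR/ort and C57BL/6 at 1-week (STR/ort replicate 1), and at 2-weeks Loxl4 between STR/ort and MRL/MpJ and Eln between C57BL/6 and MRL/MpJ, with log2 values from 0.50 to 0.58 in their absence. At 1-week Loxl4 was also lost against C57BL/6 with 1 or 2 factors from housekeeping genes (0.21 and 0.092) and with the fast muscle covariate (0.53), from 0.77 ± 0.18, and against MRL/MpJ with 1 or 2 factors (0.46 and 0.10), from 1.11 ± 0.20. Lox at 1-week was lost with 2 factors against C57BL/6 (0.76, adjusted p = 0.082) and MRL/MpJ (0.78, adjusted p = 0.25). With 2 factors Eln and Fbln2 were gained at 1-week between STR/ort and C57BL/6 (0.94 each), from 0.52 and 0.47. Eln was then gained between STR/ort and MRL/MpJ as well (1.40), from 0.56. Scaling by housekeeping genes ended the call of Fbln2 between STR/ort and MRL/MpJ at 1-week (0.48) and that of Loxl1 between STR/ort and C57BL/6 at 1-day (0.52). Calls were also gained at 1-day with 1 factor, and again with 2. With 1 factor Eln and Fbn1 stood at 0.74 and 0.64 between STR/ort and C57BL/6, from 0.45 and 0.40. Eln and Fbln2 stood at 0.90 each between STR/ort and MRL/MpJ, and Fbln2 at 0.60 between C57BL/6 and MRL/MpJ.

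In injured joints at 1-day STR/ort lay below C57BL/6 in 4 genes (background 7.48%), with Fbln2 at -1.45 ± 0.15, Fbn1 at -0.69 ± 0.14, Eln at -0.65 ± 0.16 and Loxl1 at -0.60 ± 0.14. Loxl2, at -0.58 (adjusted p = 0.00056 by edgeR), missed only the fold threshold and was called with scaling by housekeeping genes (-0.69). With 1 or 2 factors from housekeeping genes or the fast muscle covariate, only the difference of Fbln2 was called, and leaving out replicate 4 of C57BL/6 or replicate 1 of STR/ort ended the calls of Eln and Loxl1, at log2 values from -0.55 to -0.49. At 1-week STR/ort lay above C57BL/6 in 5 genes (13.3%): Loxl3 by 1.16, Loxl1 by 1.15, Lox by 1.11, Loxl2 by 1.08 and Fbn1 by 0.84. With 2 factors from housekeeping genes Eln and Fbln2 were called there too (0.88 and 0.77). At 2-weeks Fbn1 alone was called, at 0.81 ± 0.15 (5.4%), while Lox, Loxl1 and Loxl2 at 0.56 to 0.57 missed only the fold threshold, with adjusted p from 0.00017 to 0.0018. Summed markers differed between injured joints too. At 1-day those of macrophages stood at 475 to 517 CPM in STR/ort and 644 to 779 in C57BL/6. Those of fibroblasts and synovium stood at 7676 to 13525 and 4938 to 6975 CPM. The part of markers in these differences was not tested beyond the covariate at any time.

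Against MRL/MpJ the injured joints of C57BL/6 were higher in all 8 genes at 1-day (background 10%), in 3 at 1-week (4.78%) and in 5 at 2-weeks (7.31%). Those of STR/ort were higher in 5 at 1-day (10.2%), in all 8 at 1-week (15%) and in all 8 at 2-weeks (11%). At 1-day Eln was also called higher in STR/ort with 1 or 2 factors from housekeeping genes (0.84 each) and with the fast muscle covariate (0.60). Loxl3, Loxl2 and Lox showed the largest differences, 1.81 ± 0.15, 1.80 ± 0.16 and 1.76 ± 0.16 between STR/ort and MRL/MpJ at 1-week. Lox stood there at 311 to 601 CPM in STR/ort and 113 to 144 CPM in MRL/MpJ. The 1-week call of Loxl4 against MRL/MpJ, 0.95 ± 0.18, was lost with 1 factor from housekeeping genes (0.32) and with the fast muscle covariate (0.48), and the value turned to -0.049 with 2 factors. Without replicate 3 of the injured MRL/MpJ joints of 2-weeks, Fbln2 was no longer called against STR/ort, at 0.53 ± 0.11, and the other 7 were. Without replicate 5 of the injured C57BL/6 joints of 1-week Lox and Loxl3 were no longer called against MRL/MpJ, at 0.58 and 0.51. Nor were they with the fast muscle covariate (0.58 and 0.56). With 2 factors from housekeeping genes Lox was not called in that comparison (0.48), while Eln and Fbln2 were (0.85 and 0.70).

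**Figure D5:**
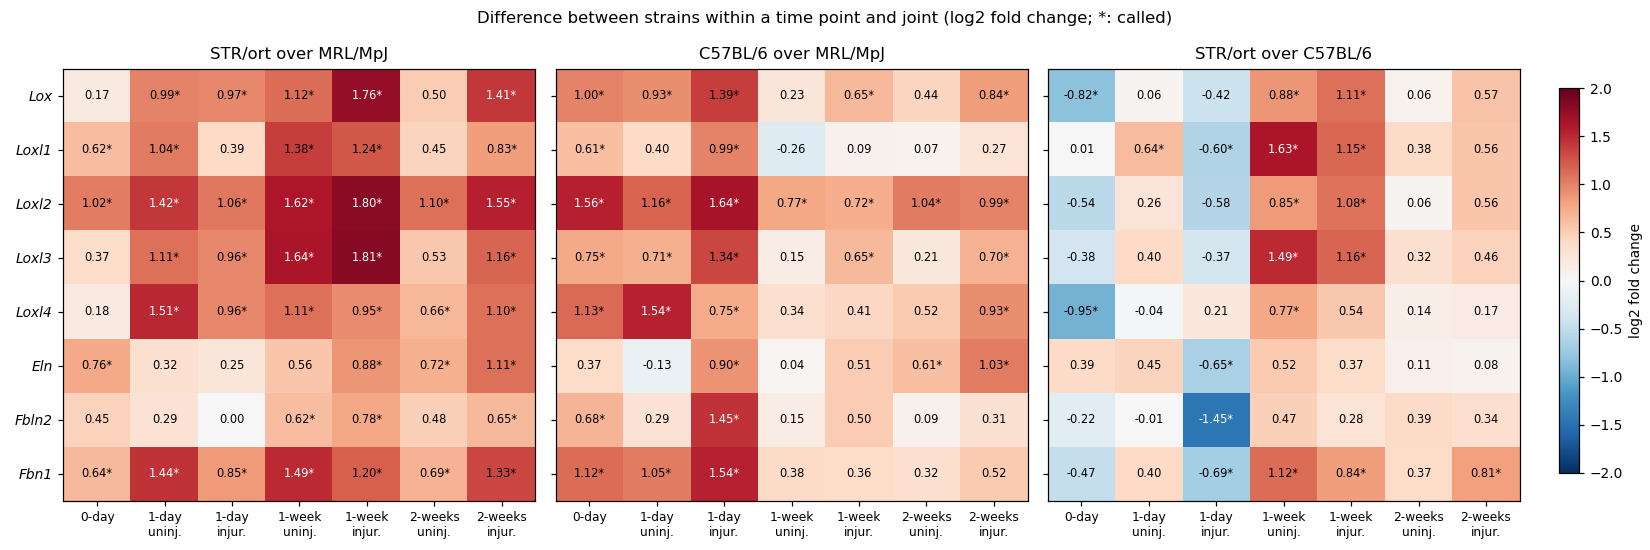
Log2 fold change between strains within each time point and joint, 1 panel per pair of strains, with called values marked by an asterisk and red where the first-named strain was higher. The Loxl2 row is called in every cell of both panels against MRL/MpJ, and in the panel of STR/ort over C57BL/6 7 genes are blue in injured joints at 1-day (Fbln2 at -1.45) and all 8 are red at 1-week, with Loxl4 red at both times.

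Genes that act with the family were followed as lists, whose counts stand beside 1.14% to 5.67% of all genes called higher in the 9 injury comparisons. Of 15 further elastic fibre and microfibril genes, 3 were called higher after injury in MRL/MpJ at 1-day, 6 at 1-week and 3 at 2-weeks, against 7, 10 and 7 in C57BL/6 and 1, 9 and 8 in STR/ort, where 1 was also called lower at 1-day. Fbn2, which encodes fibrillin-2, rose most at 1-week, by 2.19 in MRL/MpJ, 2.50 in C57BL/6 and 3.12 in STR/ort on the log2 scale. Mfap4 and Mfap5, which encode microfibril-associated glycoproteins, rose in all strains at 1-week, Mfap4 by 1.81 to 2.17 and Mfap5 by 1.44 to 2.19. The gene that was lower in STR/ort at 1-day was Mfap2, another microfibril component, at -0.61. The median of the list at 1-week was 0.55 in MRL/MpJ, 0.82 in C57BL/6 and 0.78 in STR/ort, where that of all genes lay between -0.03 and -0.01.

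Of 5 listed genes for the activation and scaffolding of lysyl oxidases, 1, 4 and 1 were called higher at 1-day in MRL/MpJ, C57BL/6 and STR/ort, 3, 5 and 3 at 1-week, and 3, 4 and 5 at 2-weeks. Postn, which encodes the matrix scaffold periostin, rose by 1.76, 1.93 and 3.02 at 1-week in that order. Bmp1, the protease that cleaves the propeptide of Lox, rose at 1-week in C57BL/6 by 0.75 and in STR/ort by 0.62. Fn1, which encodes fibronectin, was called at 1-week in MRL/MpJ and C57BL/6, by 1.48 and 1.62, and its value in STR/ort was 0.03.

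Fibrillar collagens are the main substrates of the family. Of 4 fibrillar collagen genes, 1, 2 and 0 were called higher at 1-day in MRL/MpJ, C57BL/6 and STR/ort, 2, 3 and 4 at 1-week, and 2, 2 and 3 at 2-weeks. The count of 0 in STR/ort at 1-day was also 0 by DESeq2, with 0 of 4 at an unadjusted p below 0.05. Col3a1 rose by 2.61, 2.43 and 1.77 at 1-week in that order, and at 1-day its value in STR/ort was -0.09 against 1.88 in C57BL/6. Of 5 genes for the hydroxylation and glycosylation of collagen lysines, which prepares the residues that lysyl oxidases attack, 0, 2 and 0 were called higher at 1-day, 1, 2 and 3 at 1-week, and 0, 1 and 1 at 2-weeks, in the same order of strains. DESeq2 also called 0 where edgeR did, and an unadjusted p below 0.05 was reached there by 3 genes in MRL/MpJ and 4 in STR/ort at 1-day and by 2 in MRL/MpJ at 2-weeks. At 1-week the called genes included Plod2, higher by 0.60, 1.25 and 1.09, and Colgalt2 was called lower in STR/ort, at -0.63. The 3 genes for copper delivery, Atp7a, Slc31a1 and Atox1, gave 0 calls in 27 tests over the 9 injury comparisons by edgeR and 0 by DESeq2, with 10 at an unadjusted p below 0.05, and list medians from 0.04 to 0.26.

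Across all 100 libraries the members differed in which genes they followed, given here as a description because the libraries share strain, injury, batch and tissue content. Pearson's r of log2 CPM was highest between Lox and Loxl3, at 0.93, and lowest between Loxl4 and Fbln2, at 0.19. The 3 genes most like Loxl4 were Hapln1, Col9a1 and Matn3, at 0.88, 0.87 and 0.85, all of which encode cartilage matrix proteins. Loxl2 was most like Mmp2, which encodes a matrix metalloproteinase, at 0.97, followed by Itga11 and Capn6 at 0.95 each. Among the genes nearest to Fbn1 were Lama4 and Col3a1, at 0.96 and 0.94. Nearest to Eln were Mfap4, Igf1 and Fstl1, at 0.91, 0.90 and 0.89, and nearest to Fbln2 were Pdpn, Sfrp1 and Adam9, at 0.90, 0.89 and 0.88. Lox lay closest to Tgfbi, Bcat1 and Dse at 0.93 to 0.94, Loxl1 to Npdc1, Txndc5 and Pdlim4 at 0.94 each, and Loxl3 to Maged1, Praf2 and Fkbp10 at 0.95 to 0.97.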

How the data were processed

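The authors aligned the reads to mm10 with TopHat2 (version 2.0.11), assigned them to RefSeq genes with featureCounts and deposited raw counts per gene. The table lists 17313 rows, 3 of them repeats that were dropped, and all 17310 genes passed the filter taken from the study, 2 or more counts in 5 or more libraries. Testing used the quasi-likelihood test of edgeR (version 4.0.16, under R 4.3.3) with TMM factors and Benjamini-Hochberg adjustment over all genes. All libraries of a time point, or of a strain in 1 batch for comparisons over time, entered 1 fit without covariates. SE is the absolute log2 fold change divided by the square root of F. CPM values were computed with TMM factors of the 100 libraries together, with a prior count of 2 on the log2 scale. The members, the gene lists and the comparisons were chosen with earlier results of these data known. The rule names the members in every comparison, with values for called ones, and where many were called the largest are given; it also covers the called genes of each list that changed most and the 3 genes most correlated with each member, of which 1 is not reported here.

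Alternatives were RLE size factors, RUVg with 1 or 2 factors from the study's 25 housekeeping genes (the study used RUVSeq, and the number of factors is not given in the sources used here), scaling by those genes, DESeq2 (version 1.42.0), filterByExpr, no count filter, no fold threshold, the compared groups only, a replicate block, and each library left out in turn. A fast muscle covariate was added after the data were seen. Same-numbered joints were checked by the correlation of their deviations from group means. At 2-weeks the labels name the animal, and there the MRL/MpJ pairs ran from -0.54 to 0.092. At 1-week every pair of MRL/MpJ (0.16 to 0.34) and of STR/ort (0.21 to 0.53) exceeded 0.1. Joints known to share an animal could fall below that, so the check cannot decide whether the 1-week numbers pair the joints. In simulated counts for injured against uninjured MRL/MpJ joints of 1-day, over 17310 genes, edgeR recovered 95% of 100 changes of 1 on the log2 scale and 100% of 100 changes of 2. The simulation gave every gene the same dispersion and changed only genes above a minimum mean count. Changes near the fold threshold were not simulated, so it cannot tell how well those are recovered. Gene positions and sequences came from GENCODE on GRCm38 (mm10).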

Additional observations from a re-analysis of the deposited data

Results flagged for a closer look

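The injury response differed between strains, by the interaction test of edgeR, for 9 of 72 combinations of gene, strain pair and time. At 1-day the response of STR/ort differed from that of C57BL/6 by -1.45 for Fbln2, -1.23 for Loxl1, -1.10 for Eln, -1.08 for Fbn1, -0.84 for Loxl2 and -0.77 for Loxl3 on the log2 scale. At the same time that of C57BL/6 was above that of MRL/MpJ by 1.16 for Fbln2 and 1.03 for Eln. At 2-weeks the response of Lox in STR/ort was above that in MRL/MpJ by 0.91.

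A library stood far from the rest of its group, by Dixon's test, in 13 of 168 combinations of gene and group, where chance flags about 1 in 20. For Lox these were STR/ort 0-day replicate 4 at 72.2 CPM, uninjured STR/ort 1-day replicate 2 at 169 CPM and uninjured MRL/MpJ 1-week replicate 4 at 86.0 CPM. For Loxl1 they were uninjured C57BL/6 1-day replicate 2 at 33.1 CPM, injured MRL/MpJ 2-weeks replicate 3 at 38.3 CPM, the library described above as standing apart, and uninjured MRL/MpJ 2-weeks replicate 2 at 32.6 CPM. The highest level of Loxl2, 825 CPM in injured STR/ort 1-week replicate 1, was among them, as was Loxl3 at 41.1 CPM in injured MRL/MpJ 1-day replicate 2. For Eln they were uninjured MRL/MpJ 1-day replicate 5 at 34.4 CPM, uninjured C57BL/6 1-day replicate 1 at 44.1 CPM and uninjured STR/ort 1-week replicate 3 at 33.6 CPM. For Fbn1 they were injured MRL/MpJ 1-day replicate 2 at 199 CPM and uninjured MRL/MpJ 1-week replicate 2 at 69.9 CPM.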

How the results depend on the processing

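Of 177 calls of a member, DESeq2 and RLE size factors kept 176 each, scaling by housekeeping genes 173, RUVg with 1 factor 167, the fast muscle covariate, which was added after seeing the data, 159, and RUVg with 2 factors 154, while filterByExpr and no count filter kept all 177. The count that moved most was that between strains at 0-day, 13 calls, which became 6 with the fast muscle covariate and 3 with RUVg and 2 factors. Calls turned their direction in 5 cases. With 2 factors Loxl4 at 0-day became 0.083 between STR/ort and C57BL/6 and -0.29 between C57BL/6 and MRL/MpJ, Lox became -0.054 in the latter comparison and Loxl4 -0.049 between injured STR/ort and MRL/MpJ joints at 1-week. With the covariate Loxl4 at 0-day became 0.028 between STR/ort and C57BL/6. The cause was not tested. Omitting the libraries one at a time, there were 11 to 14 calls between strains at 0-day, 50 to 55 for injury, 30 to 35 and 45 to 50 between strains in uninjured and injured joints, 7 to 10 interactions, 11 to 14 for contralateral against 0-day joints and 11 to 14 for 1-week against 1-day, and 153 of the 177 calls were kept without every library.

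With the replicate block there were 52 calls for injury, against 51, and 9 interactions, against 9. At 1-day the labels do not say whether the numbers pair the joints. There the block gained Fbn1 for injury in STR/ort (0.61). It lost Eln between the responses of C57BL/6 and MRL/MpJ (1.02, adjusted p = 0.071 by edgeR). Beside Lox at 1-week the block changed no other call. Every member had at least 92 counts in each library.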
